A study of Mus musculus with 15 samples.

Results

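The effect of blocking PD-L1 on the limb muscle of mice with a tumour was examined in 7 of the 15 libraries of the series, 3 from mice given an antibody against PD-L1 and 4 from mice given an isotype IgG. The libraries were chosen by their treatment label and were compared across all genes. The tissue was the tibialis anterior, a fast muscle at the front of the shin, and the mice were male C57BL/6 (C57BL/6NCrlOri) animals, 6 to 8 weeks old at the start. Every mouse of both groups had received cells of the tumour line KrasIKKaL in the trachea, so tumour cells are common to the groups compared. The anti-PD-L1 group was given clone 10F.9G2 at 200 µg per kg into the abdomen 3 times a week, and the IgG group rat IgG2b of clone LTF-2, for which the labels state no dose. The other 8 libraries, 5 from control mice without tumour and 3 from tumour-bearing mice given 200 µg of an antibody against CD8a, entered the estimate of spread and are given as levels where named. Nothing in the labels states that the libraries are from different mice, so the p-values measure the spread between libraries, which may be technical. They give tumour size, muscle mass and body weight for none of the mice.

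PD-L1, the product of Cd274, is a ligand on tumour cells, myeloid cells and inflamed tissue that restrains T cells through the receptor PD-1, and an antibody that covers it releases that restraint. Limb muscle holds few immune cells. Its macrophages clear debris and iron, carry scavenger receptors such as CD163 and the mannose receptor, and make the complement starter C1q. They lie beside fibro-adipogenic progenitors, the Pdgfra-positive mesenchymal cells of the interstitium that make much of the matrix, other complement proteins and several chemokines.

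The 3 anti-PD-L1 libraries held 17825801 to 22459370 expected counts, the IgG libraries 15894822 to 18768544. Genes with a count above 0 numbered 19420 to 19733 against 18571 to 18940 in IgG, a two-sided exact permutation p of 0.0571, the smallest that 3 against 4 libraries allow. Mitochondrial transcripts held 12.8% ± 1.67 (SD, n = 3) and 14.5% ± 1.69 (n = 4) of counts (exact permutation p = 0.286). The muscle actin gene Acta1 stood at 11794, 16072 and 19595 CPM against 13819.8, 15505, 13916 and 13861 CPM, as a check of the tissue, where CPM are read counts relative to the library total, scaled between libraries and not divided by gene length. The first principal component of all 15 libraries held 56.1% of the variance. On it the groups overlapped, with the anti-PD-L1 libraries at 22.9, 60.5 and 4.98 and the IgG libraries at 38.0 to 92.3. The second component, with 8.55%, set the 3 anti-PD-L1 libraries (-50.0, -17.5 and -37.0) apart from the 4 IgG libraries (-7.02 to 33.8). Replicates 2 were the nearest pair on the second component. Anti-PD-L1 replicate 2 also carried lymphocyte and antibody transcripts that most of the other libraries held at or near 0.

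Most tested genes of the pan-leukocyte (14 of 16), resident macrophage (14 of 20), class II (8 of 9), complement (11 of 19) and fibro-adipogenic progenitor (20 of 29) lists rose in the muscle of anti-PD-L1 mice relative to IgG mice. These counts used the spread of all 15 libraries. Fitted on the 7 libraries alone, they were 8, 3, 2, 4 and 2 in the same order, where 37 genes were called in all. With replicate number as a block they were 5, 7, 0, 8 and 5, where 69 genes were called in all. Most interferon, class I, matrix and collagen genes did not pass the test, and neither did any atrophy ligase or proteasome gene. Of 14372 genes tested, 791 (5.50%) had an adjusted p under 0.05, 569 higher (3.96%) and 222 lower (1.54%). The median log2 fold change of the higher genes was 1.41, that of the lower genes -0.74 and that of all genes tested 0.01. Higher genes had a median level of 3.87 CPM, against 57.9 CPM for the lower genes and 9.19 CPM for all genes tested. An IgG mean under 1 CPM was found in 170 of the 569 higher genes. The levels of the anti-PD-L1 and IgG libraries did not overlap in 583 of the 791 genes, and in 1709 of all genes tested (11.9%). Higher genes made up 71.9% of the calls, 85.2% with upper-quartile scaling, which moved the median log2 fold change of all genes to 0.12, and 48.7% in DESeq2.

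**Figure D1:**
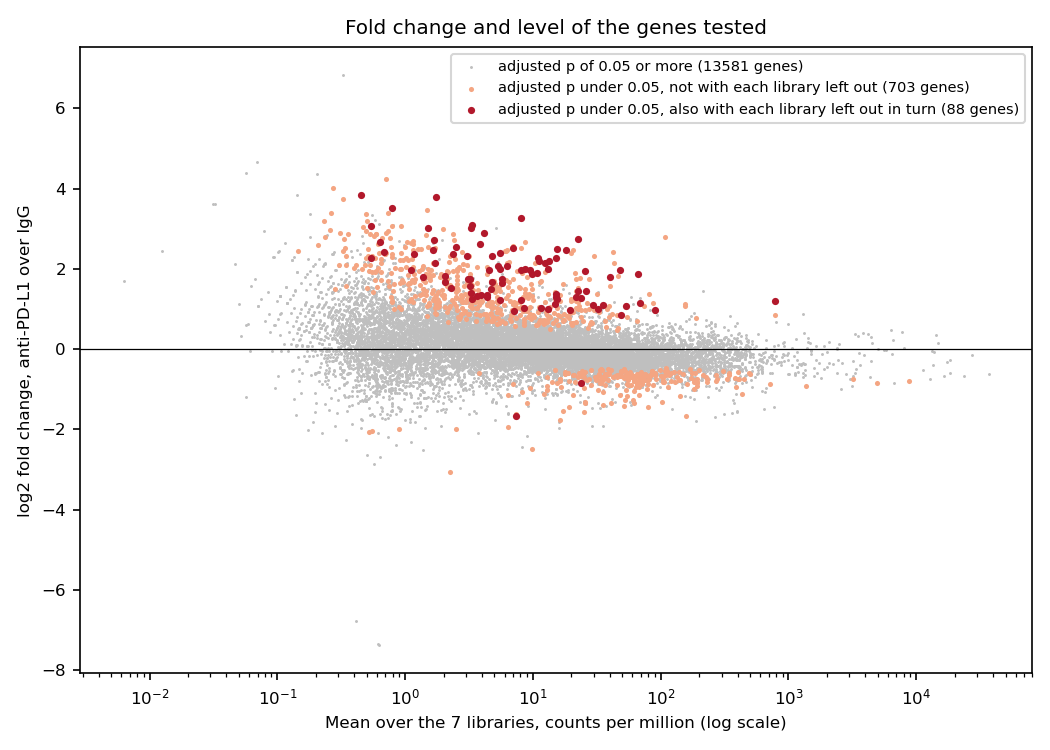
Each point is 1 of the 14372 genes tested, by its mean level over the 7 libraries in CPM (log axis) and its log2 fold change, anti-PD-L1 over IgG. Dark red points are the 88 genes that also had an adjusted p under 0.05 with each library left out in turn, and 86 of them lie above 0.

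The number of calls rested on which libraries were included. Replicate 2 of each group lay nearest to the other group. Over all genes tested, log CPM of anti-PD-L1 replicate 2 correlated with IgG replicates 1 to 4 at 0.971, 0.977, 0.970 and 0.967. With anti-PD-L1 replicates 1 and 3 it correlated at 0.963 and 0.964. IgG replicate 2 correlated with anti-PD-L1 replicates 1 to 3 at 0.964, 0.977 and 0.970, and with the other IgG libraries at 0.963 to 0.966. Among the calls, anti-PD-L1 replicate 2 was the lowest of its group in 434 of the 569 higher genes, and IgG replicate 2 the highest of its group in 382. In the 222 lower genes, anti-PD-L1 replicate 2 was the highest of its group in 190, and IgG replicate 2 the lowest of its group in 175. Without anti-PD-L1 replicate 2, 2712 genes were called, and 2604 without IgG replicate 2. Leaving out any other library lowered the count. For anti-PD-L1 it fell to 147 (replicate 1 left out) and 158 (replicate 3 left out), and for IgG to 162 (replicate 1), 313 (replicate 3) and 210 (replicate 4). Fitted on these 7 libraries alone, the comparison gave 37 calls, all higher. No gene called in the fit of all libraries changed direction in any of the alternatives.

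**Figure D2:**
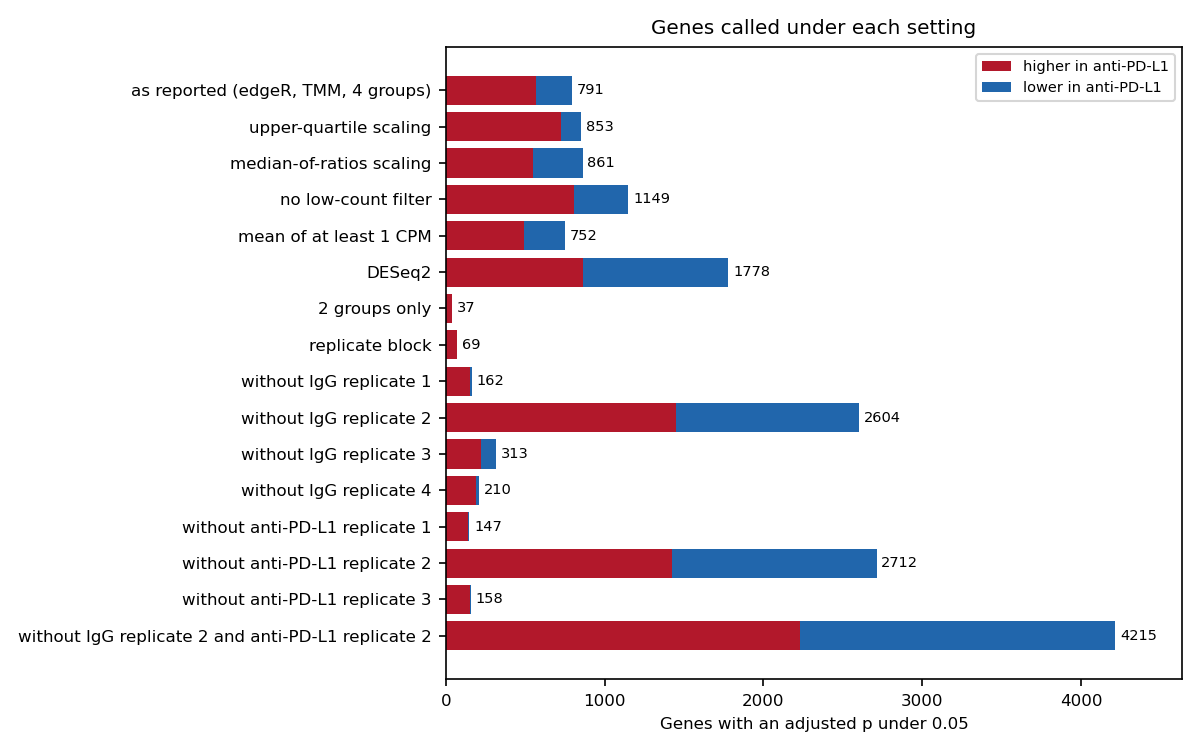
Bars give the number of genes with an adjusted p under 0.05 under each setting, from 0, with genes higher in anti-PD-L1 in red and lower in blue. The 2 longest single-library bars are those without replicate 2 of either group, 2712 and 2604 genes, against 791 as reported.

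In 88 genes the call held with each of the 7 libraries left out in turn, 86 higher and 2 lower. Many are genes of the interstitium, of leukocytes or of complement. Gsn, which encodes the actin-severing protein gelsolin and is abundant in fibroblasts, had the highest CPM of them. It stood at 786, 988 and 1694 CPM in anti-PD-L1 replicates 1 to 3 and at 437, 587, 539 and 433 CPM in IgG replicates 1 to 4. Every anti-PD-L1 library lay above every IgG library, and the log2 fold change was 1.21 ± 0.22 (SE, adjusted p = 0.00828). Igfbp4, which encodes a secreted binder of insulin-like growth factors, had narrow groups, with 125, 127 and 124 CPM against 69.9, 67.2, 63.8 and 52.04 CPM. All 3 anti-PD-L1 libraries were within a few CPM of each other and well above the IgG libraries, with a log2 fold change of 0.99 ± 0.15 (adjusted p = 0.00484). Serping1, the inhibitor of the complement proteases C1r and C1s, rose by 1.15 ± 0.18 on the log2 scale (adjusted p = 0.00484). Dpep1, a membrane dipeptidase, stood at 58.6, 44.01 and 48.6 CPM against 22.5, 25.3, 23.3 and 23.6 CPM and rose by 1.09 ± 0.16. Its 4 IgG libraries lay within 3 CPM of each other.

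Others of the 20 with the highest CPM in this set were Rnase4, Tbc1d4, Fn1, Ogn, Scara5, Tgfbi, Pdp1, Dpt, Anxa1, F13a1, C1s1, C3, Ccl11, Gm2a, C1qb and Mbd6. Tbc1d4 encodes a regulator of glucose transporter traffic in muscle, and Pdp1 the phosphatase that activates pyruvate dehydrogenase. Tbc1d4 was at 63.9, 55.9 and 77.3 CPM against 31.7, 39.1, 33.97 and 41.96 CPM (log2 fold change 0.84 ± 0.14). Pdp1 was at 53.9, 36.9 and 32.02 CPM against 12.97, 23.7, 10.5 and 12.5 CPM (log2 fold change 1.46 ± 0.26), and its mean in control mice was 64.5 CPM, above both groups. Anxa1, which encodes a membrane-binding protein of myeloid cells and fibroblasts, was highest in anti-PD-L1 replicate 1, with 51.7, 26.6 and 29.3 CPM against 14.5, 16.9, 13.2 and 15.03 CPM. The groups did not overlap in any of these 20 genes. Mbd6, a chromatin protein gene, was the exception in direction, with 16.6, 16.2 and 16.1 CPM against 31.7, 25.9, 29.6 and 29.5 CPM and a log2 fold change of -0.84 ± 0.14 (adjusted p = 0.00530). The other lower gene of the 88 was Gm13889, at 3.58, 4.46 and 1.85 CPM against 11.98, 8.31, 9.14 and 12.2 CPM.

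**Figure D3:**
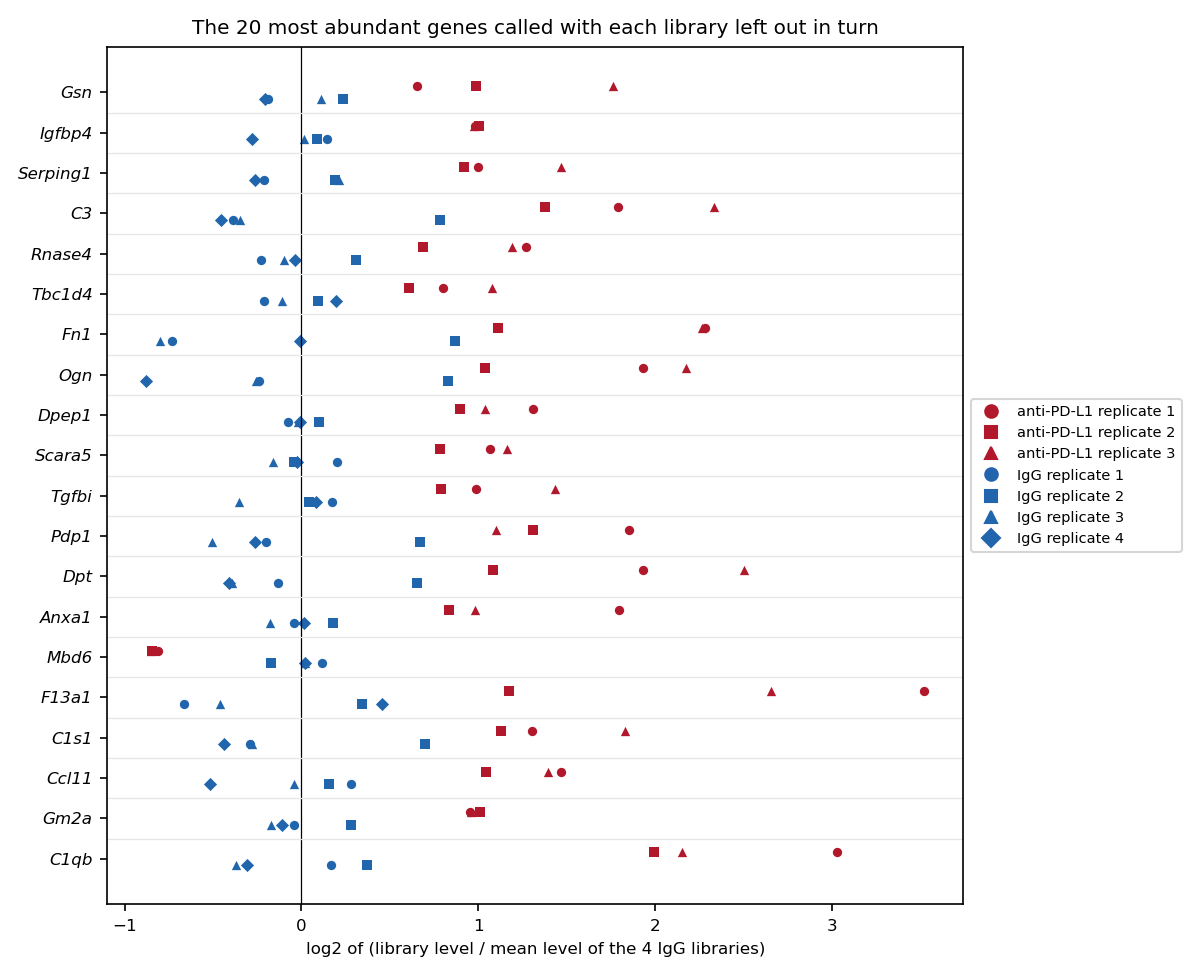
For the 20 of the 88 genes with the highest CPM, each symbol is 1 library, plotted as the log2 of its level over the mean of the 4 IgG libraries, with anti-PD-L1 in red and IgG in blue and 1 shape per replicate number. In 19 genes every red symbol lies to the right of every blue one, with anti-PD-L1 replicate 2 (red squares) often nearest to the blue symbols, and in Mbd6 every red symbol lies to the left.

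Of the 88 genes, 21 were called under all 15 alternatives tried: C1qa, C1qb, C1qc, Cfp, Lyve1, Mrc1, Pf4, Csf1r, Laptm5, Fcer1g, Coro1a, Cytip, Cyba, Cybb, Pltp, Rassf2, Igfbp4, Dpep1, Scara5, Ccl11 and Bmper. Cyba and Cybb encode the membrane subunits of the phagocyte NADPH oxidase. Cybb was at 14.5, 5.79 and 6.20 CPM against 2.05, 1.56, 1.45 and 1.95 CPM, and Cyba at 12.5, 8.27 and 8.18 CPM against 2.17, 2.71, 3.59 and 2.99 CPM. Bmper, a secreted regulator of bone morphogenetic proteins, was at 6.67, 6.56 and 9.15 CPM against 2.73, 2.41, 2.71 and 2.69 CPM. In each of these 3 genes the groups were apart.

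Most genes carried by nearly all white blood cells rose. Of 16 tested members of the pan-leukocyte list, 14 rose and none fell, with a median log2 fold change of 2.0. Their summed level was 160.2, 89.8 and 105 CPM in anti-PD-L1 replicates 1 to 3 and 26.2, 35.4, 23.3 and 29.8 CPM in IgG replicates 1 to 4, and 39.8 to 59.1 CPM in control. Ptprc, the leukocyte marker CD45, stood at 7.53, 4.93 and 5.01 CPM against 0.683, 1.5, 1.01 and 1.47 CPM (log2 fold change 2.31 ± 0.45, adjusted p = 0.0113). Itgb2, the shared chain of the leukocyte integrins, rose by 2.63 ± 0.47 (adjusted p = 0.00729), and Tyrobp, a signalling adaptor of myeloid receptors, by 2.51 ± 0.44 (adjusted p = 0.00727). Laptm5, a lysosomal membrane protein gene of blood cells, was at 19.5, 16.3 and 19.3 CPM against 6.76, 4.21, 3.97 and 4.76 CPM and rose by 1.90 ± 0.29. The 2 members that did not pass were transcription factor genes, Spi1 (1.26 ± 0.47, adjusted p = 0.105) and Ikzf1 (1.38 ± 0.45, adjusted p = 0.0728). In bulk tissue, more cells of a type cannot be told apart from more RNA per cell. The count was 7 without anti-PD-L1 replicate 1 and 11 to 15 without any other library.

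Of 20 resident macrophage genes tested, 14 rose and none fell, with a median log2 fold change of 2.61, and 9 kept their call with each library left out. The count was 9 without anti-PD-L1 replicate 1 or IgG replicate 1 and 17 without anti-PD-L1 replicate 2. Lyve1, a hyaluronan receptor of perivascular macrophages and lymphatic vessels, was at 32.5, 37.8 and 17.3 CPM against 5.34, 7.40, 3.84 and 4.15 CPM. The lowest anti-PD-L1 library was more than double the highest IgG library, and the log2 fold change was 2.49 ± 0.30 (adjusted p = 0.00224). Mrc1, the mannose receptor, stood at 35.3, 13.7 and 23.4 CPM against 4.53, 6.20, 3.21 and 7.09 CPM (2.19 ± 0.30, adjusted p = 0.00484). Cd163, the receptor that takes up haemoglobin bound to haptoglobin, was at 25.9, 10.7 and 24.4 CPM against 3.48, 6.56, 1.76 and 5.92 CPM (2.19 ± 0.37, adjusted p = 0.00557). Both were highest in replicates 1 and 3 and lowest in replicate 2. F13a1, the A subunit of clotting factor XIII and a marker of these macrophages, spread more widely, from 75.7, 14.9 and 41.4 CPM in replicates 1, 2 and 3 against 4.16, 8.37, 4.79 and 9.04 CPM (2.74 ± 0.40, adjusted p = 0.00484). Timd4, a receptor for dying cells, was near 1 CPM in each anti-PD-L1 library, 0.953, 0.943 and 1.01 CPM, and at 0, 0.0602, 0 and 0.183 CPM in IgG, where a count of 0 allows up to 0.186 CPM in replicate 1 and 0.189 CPM in replicate 3.

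Fcrls (3.46 ± 0.76, adjusted p = 0.0216) and Ms4a6b (2.88 ± 0.58, adjusted p = 0.0149) also rose, with Fcrls at 4.19, 0.943 and 4.22 CPM against 0, 0.662, 0.189 and 0.244 CPM. Its call was lost in 5 of 7 fits that left out 1 library. Members that did not pass included Gas6 (0.14 ± 0.21), a bridging ligand for dying cells, Igf1 (0.43 ± 0.35) and Selenop (0.53 ± 0.17), which other cells of muscle make as well. The summed level of the list includes these members, so it is not a level of macrophages alone. It did not overlap, at 811, 577 and 714 CPM against 358, 418, 363 and 371 CPM. In control it was 569 to 694 CPM, which overlapped with the anti-PD-L1 libraries.

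Macrophage identity genes moved unevenly. Of 13 tested, 6 rose: Csf1r, Adgre1, Lyz2, Aif1, Mpeg1 and Itgam. Csf1r, the receptor for macrophage growth factor, was at 27.8, 12.6 and 28.7 CPM against 4.41, 7.22, 4.85 and 6.41 CPM and rose by 2.01 ± 0.32 (adjusted p = 0.00484). Its ligands Csf1 (0.55 ± 0.27, adjusted p = 0.194) and Il34 (0.27 ± 0.31, adjusted p = 0.600) did not pass. Itgam, the alpha chain of the complement receptor CR3, was at 18.97, 6.94 and 8.44 CPM against 1.49, 3.13, 1.20 and 2.5 CPM (2.45 ± 0.53, adjusted p = 0.0196). Cd68, a lysosomal protein gene used as a macrophage marker, went the other way without passing the test. It was at 18.6, 7.50 and 4.31 CPM against 12.04, 5.12, 30.9 and 37.01 CPM, and at 2.81 CPM in control, with a log2 fold change of -1.07 ± 0.55 (adjusted p = 0.224). IgG replicates 3 and 4 held the highest Cd68 levels of the 7 libraries, while their Csf1r levels lay below those of every anti-PD-L1 library.

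Of 10 tested genes of monocyte-derived and inflammatory macrophages, 4 rose: Ccr2, Plac8, Chil3 and Retnla. Retnla, a secreted product of alternatively activated macrophages, was even across the anti-PD-L1 libraries, at 80.4, 79.4 and 73.1 CPM against 14.8, 24.9, 16.4 and 13.99 CPM (2.15 ± 0.45, adjusted p = 0.0168). Ccr2, the chemokine receptor of recruited monocytes, was at 18.9, 6.81 and 9.68 CPM against 0.869, 5.60, 0.693 and 3.18 CPM (2.18 ± 0.61, adjusted p = 0.0486), and IgG replicate 2 came close to anti-PD-L1 replicate 2. Chil3, a chitinase-like protein gene, reached 26.7, 5.66 and 7.34 CPM against 0.807, 0.722, 2.65 and 4.76 CPM. None of the 4 kept its call with each library left out, and without anti-PD-L1 replicate 1 or without IgG replicate 1 no member of the list was called. Genes of the foamy, lipid-handling state did not pass, with Gpnmb at 0.04 ± 0.28, Lgals3 at 0.70 ± 0.40 and Spp1 at 1.38 ± 0.53. Trem2 was below the filter on low counts, with 70 counts in anti-PD-L1 replicate 1 and 1 to 7 counts in each other library.

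Among receptors for particles, antibodies and microbial patterns, 8 of 14 tested rose and none fell. The count was 3 without anti-PD-L1 replicate 1 or IgG replicate 1, 4 without anti-PD-L1 replicate 3 or IgG replicate 4, 5 without IgG replicate 3, and 10 without replicate 2 of either group. Fcgr2b, the inhibitory receptor for IgG, was at 23.02, 13.1 and 13.9 CPM against 3.29, 5.90, 4.03 and 3.79 CPM (1.97 ± 0.35, adjusted p = 0.00760). Fcgr3, an activating receptor for IgG, rose by 1.96 ± 0.41 (adjusted p = 0.0167). Both groups compared had been given an antibody, with no dose stated for IgG, and the part of the injected antibodies was not tested. Tlr7, the sensor of single-stranded RNA, was at 4.43, 2.83 and 1.94 CPM against 0.745, 0.722, 0.252 and 1.04 CPM (2.14 ± 0.38, adjusted p = 0.00771). Axl, a receptor for dying cells, rose by 1.11 ± 0.22 (adjusted p = 0.0144), while its relative Mertk stood at 0.09 ± 0.27 (adjusted p = 0.858). Msr1 rose by 2.54 ± 0.62 (adjusted p = 0.0329), but anti-PD-L1 replicate 2, at 0.557 CPM, lay inside the range of the IgG libraries. Clec4a2, Cd84, Dock2 and Cd209d, leukocyte genes outside the lists, rose by 2.98, 2.73, 2.72 and 2.7 on the log2 scale.

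Promoters are shown for 4 macrophage and leukocyte genes that rose, picked from the 5 windows that hold GAGGAAGT, the longer of the letter runs searched for. PU.1, encoded by Spi1, is the transcription factor that sets up myeloid gene expression, and its DNA element holds the purine-rich core GAGGAA. Of the 46 called genes in the pan-leukocyte list and the macrophage and phagocytic receptor lists, 33 had a promoter in the RefSeq table of GRCm38.p6, which gives 300 bases around each start site. Each sequence reads 5′ to 3′ on the strand of its gene, and capitals mark the searched letters, GAGGAAGT, its core GAGGAA, or the same letters on the other strand (ACTTCCTC for GAGGAAGT). The windows are chr5:90772185-90772484 (plus strand) for Pf4, chr13:37049164-37049463 (minus strand) for F13a1, chr3:106790100-106790399 (minus strand) for Cd53 and chr16:48842359-48842658 (plus strand) for Retnla.
Pf4: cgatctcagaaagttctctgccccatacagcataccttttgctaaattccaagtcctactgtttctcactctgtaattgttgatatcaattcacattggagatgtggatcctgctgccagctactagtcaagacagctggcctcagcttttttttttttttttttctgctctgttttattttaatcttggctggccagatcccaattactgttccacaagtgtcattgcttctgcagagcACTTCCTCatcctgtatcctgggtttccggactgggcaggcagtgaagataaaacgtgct
F13a1: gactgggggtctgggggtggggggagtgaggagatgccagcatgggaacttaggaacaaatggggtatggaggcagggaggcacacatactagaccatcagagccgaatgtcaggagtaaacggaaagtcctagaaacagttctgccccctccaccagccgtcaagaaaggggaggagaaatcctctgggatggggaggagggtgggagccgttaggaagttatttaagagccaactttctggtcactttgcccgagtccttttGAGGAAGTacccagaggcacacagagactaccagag
Cd53: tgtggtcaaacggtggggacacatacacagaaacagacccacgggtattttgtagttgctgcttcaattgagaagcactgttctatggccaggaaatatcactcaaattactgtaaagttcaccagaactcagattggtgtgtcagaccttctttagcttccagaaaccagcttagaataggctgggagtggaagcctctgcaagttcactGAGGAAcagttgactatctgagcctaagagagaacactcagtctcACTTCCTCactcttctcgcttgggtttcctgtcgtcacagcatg
Retnla: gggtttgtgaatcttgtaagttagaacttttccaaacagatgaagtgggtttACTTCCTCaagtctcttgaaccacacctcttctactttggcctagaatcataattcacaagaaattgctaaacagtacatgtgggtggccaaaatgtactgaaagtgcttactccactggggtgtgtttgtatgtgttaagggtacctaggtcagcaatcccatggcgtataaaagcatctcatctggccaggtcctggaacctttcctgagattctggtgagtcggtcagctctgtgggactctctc
GAGGAAGT stood in 5 of the 43 windows of these genes (11.6%) and in 1052 of 32851 windows of all genes (3.20%), and GAGGAA in 20 (46.5%) and 9289 (28.3%). The fifth window with GAGGAAGT is that of Vav1, and the other window of F13a1 lacks it. Every GAGGAAGT also holds GAGGAA. These are counts of letters in the windows, with no test, and no binding was measured. Pf4 was at 11.2, 2.66 and 10.9 CPM against 0.993, 1.38, 0.945 and 1.1 CPM (2.89 ± 0.44, adjusted p = 0.00484), and Cd53, a leukocyte tetraspanin gene, at 20.5, 7.50 and 7.48 CPM against 1.99, 2.53, 1.89 and 2.08 CPM (2.47 ± 0.45, adjusted p = 0.00863). In both the groups were apart, with the lowest anti-PD-L1 library replicate 2 in Pf4 and replicates 2 and 3 in Cd53.

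Antigen presentation on MHC class II was higher in 8 of 9 genes tested, and none fell. The invariant chain gene Cd74 was at 46.3, 90.6 and 99.4 CPM against 25.9, 31.8, 14.5 and 16.8 CPM (1.82 ± 0.38, adjusted p = 0.0164). H2-Eb1, a beta chain of class II, was at 13.1, 25.3 and 25.6 CPM against 5.71, 9.57, 3.59 and 3.66 CPM (1.92 ± 0.42, adjusted p = 0.0210). Cd74 and H2-Eb1 were highest in anti-PD-L1 replicates 2 and 3. Ciita, the master regulator of these genes, rose by 2.10 ± 0.49 (adjusted p = 0.0279) from low levels, 0.763, 0.343 and 0.748 CPM against 0.124, 0.181, 0.0630 and 0.183 CPM. Ctss, the protease that trims the invariant chain, was highest in anti-PD-L1 replicate 1, with 69.8, 21.1 and 19.7 CPM against 9.19, 8.79, 4.29 and 5.92 CPM (2.38 ± 0.47, adjusted p = 0.0128). H2-DMb2 did not pass (2.16 ± 0.68, adjusted p = 0.0688). Without IgG replicate 4 or without anti-PD-L1 replicate 3, 1 of the 9 was called, 3 or 4 without IgG replicates 1 and 3 and anti-PD-L1 replicate 1, and 8 or 9 without replicate 2 of either group, and B cells, which also carry class II, were most evident in anti-PD-L1 replicate 2, and their part in the result was not tested. Of 17 class I and immunoproteasome genes 1 rose, H2-T23 (0.67 ± 0.18, adjusted p = 0.0465), where 3.96% of all genes rose, and the list's median log2 fold change was 0.36. With 1 library left out, 0 (without anti-PD-L1 replicate 1 or 3, or without IgG replicate 1, 3 or 4) to 3 (without anti-PD-L1 replicate 2) of the 17 were called.

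Complement was higher at its first steps. Of 19 genes tested, 11 rose and none fell, and 8 of the 11 kept their call with each library left out. The C1q chains, made largely by macrophages, were among the genes of smallest adjusted p, and C1qa, C1qc and Lyve1 shared the smallest. C1qa was at 39.2, 19.3 and 24.8 CPM against 6.70, 6.44, 4.41 and 5.50 CPM (2.27 ± 0.27, adjusted p = 0.00224). C1qb rose by 2.46 ± 0.35 (adjusted p = 0.00484) and C1qc by 2.15 ± 0.27 (adjusted p = 0.00224). The proteases C1ra and C1s1, which C1q activates, had another order of libraries. C1s1 was at 31.9, 28.2 and 45.9 CPM against 10.6, 20.9, 10.6 and 9.53 CPM (1.45 ± 0.24, adjusted p = 0.00557), and C1ra at 15.8, 21.2 and 32.1 CPM against 8.07, 12.3, 9.01 and 8.12 CPM (1.29 ± 0.22, adjusted p = 0.00614). C1q was highest in anti-PD-L1 replicate 1 and the proteases in replicate 3, where the genes of fibro-adipogenic progenitors were highest too.

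C3, the central component, was at 107, 80.1 and 155 CPM against 23.6, 53.03, 24.3 and 22.5 CPM (1.89 ± 0.28, adjusted p = 0.00484). Cfb and Cfp, of the alternative pathway, rose by 1.48 ± 0.32 (adjusted p = 0.0180) and 2.08 ± 0.33 (adjusted p = 0.00484). The receptors for the fragments C3a and C5a rose as well, C3ar1 by 2.32 ± 0.59 (adjusted p = 0.0363) and C5ar1 by 1.80 ± 0.41 (adjusted p = 0.0232), with groups that overlapped in C3ar1. The cell surface regulators Cd55 (0.56 ± 0.30) and Cd59a (0.15 ± 0.16) did not pass. Cfd, the adipocyte product adipsin, spread from 0.945 to 93.0 CPM within IgG and was not called (1.13 ± 0.90, adjusted p = 0.434).

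Of 16 chemokine ligand genes tested, 7 rose and none fell: Ccl6, Ccl8, Ccl9, Ccl11, Ccl24, Cxcl14 and Cxcl16. With 1 library left out, 2 (without anti-PD-L1 replicate 1) to 9 (without anti-PD-L1 replicate 2) rose, with 3 without IgG replicate 1 or 4 and 4 without anti-PD-L1 replicate 3, and 1 fell without IgG replicate 2. Ccl11, the eosinophil attractant eotaxin, was at 36.7, 27.3 and 34.9 CPM against 16.1, 14.8, 12.9 and 9.28 CPM (1.31 ± 0.22, adjusted p = 0.00530). Ccl6 and Ccl9, made by macrophages, were at 135, 41.1 and 60.6 CPM against 10.2, 19.7, 14.4 and 14.3 CPM (2.43 ± 0.52) and 60.1, 21.9 and 34.04 CPM against 6.33, 9.93, 6.30 and 5.25 CPM (2.47 ± 0.49). Both were highest in anti-PD-L1 replicate 1. Cxcl14, a chemokine of fibroblasts and muscle, rose by 1.58 ± 0.32 (adjusted p = 0.0151). The ligands of CXCR3, which interferon induces and which attract T cells, did not pass: Cxcl9 stood at 0.143, 0.0857 and 0.572 CPM against 0.0621, 0.241, 0.0630 and 0.122 CPM, and Cxcl10 at 0.429, 0.343 and 0.704 CPM against 3.54, 0.542, 1.89 and 0.977 CPM (-1.80 ± 0.67, adjusted p = 0.107). Interferon response genes were called in 3 of 41, Ifi27l2a (2.15 ± 0.53, adjusted p = 0.0329), Ifih1 (0.95 ± 0.24, adjusted p = 0.0379) and Ifngr1 (0.55 ± 0.14, adjusted p = 0.0399), all higher, against 5.50% of all genes, and the list's median log2 fold change was 0.25. The count was 0 without anti-PD-L1 replicate 3 and without IgG replicates 1, 3 and 4 in turn, 1 without anti-PD-L1 replicate 1, 8 without anti-PD-L1 replicate 2 and 10 without IgG replicate 2. Their summed level did not overlap, at 234, 229 and 253 CPM against 178, 196, 180.4 and 158 CPM, and was 334 to 428 CPM in control, above both groups.

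T cell transcripts were scarce in both groups. Of 28 T and NK cell genes, 24 were below the filter, and Cd8a had 0, 3 and 0 counts in the anti-PD-L1 libraries and 0, 0, 1 and 0 in the IgG libraries. Counts of 3 or fewer in libraries of 15894822 to 22459370 could not show a difference. Cd2, an adhesion receptor of lymphocytes and some myeloid cells, was the member of the list that rose (3.06 ± 0.76, adjusted p = 0.0336; not called without anti-PD-L1 replicate 1 or IgG replicate 1, 3 or 4), at 1.0, 0.643 and 1.19 CPM against 0.0621, 0.241, 0 and 0.122 CPM. Cd274, which encodes PD-L1 itself, was at 1.43, 0.943 and 0.572 CPM against 2.48, 1.20, 1.32 and 1.71 CPM (-0.78 ± 0.51, adjusted p = 0.334), and its RNA does not check the treatment, since the antibody binds the protein. Of 10 checkpoint genes 3 rose, none without anti-PD-L1 replicate 1 or IgG replicate 1 or 4, 1 without replicate 3 of either group and 6 without replicate 2 of either group. Cd86, a ligand of CD28, rose by 2.37 ± 0.53 (adjusted p = 0.0233) and Cd200r1, an inhibitory receptor of myeloid cells, by 3.07 ± 0.72 (adjusted p = 0.0284). Their means in IgG were low, 0.276 and 0.184 CPM. Cd47, the signal that restrains phagocytosis, rose by 0.52 ± 0.12 (adjusted p = 0.0228) and was tight within IgG, at 32.1, 36.8 and 29.7 CPM against 22.9, 22.4, 22.9 and 23.3 CPM.

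Anti-PD-L1 replicate 2 stood apart from the other 6 libraries in lymphocyte and antibody transcripts. Ighg1, the heavy chain of IgG1, had 549 counts there, 1 in anti-PD-L1 replicate 1 and 0 in the other 5 libraries. Ighg2b had 160 counts there and at most 2 elsewhere. Jchain, the chain that joins secreted IgA and IgM, had 197 counts, against 57 in IgG replicate 2 and 1 to 7 in the rest. The B cell genes Cd79b and Pax5 had 39 and 26 counts, against at most 2 in any other library, and Cd4 and Trbc2 had 29 and 22 counts, also against at most 2. Igkc, the kappa light chain, was at 0.524, 29.9 and 0.528 CPM against 0.248, 4.57, 0.126 and 0.122 CPM, so that anti-PD-L1 replicate 2 was highest and IgG replicate 2 next. Its log2 fold change of 3.01 ± 1.23 (adjusted p = 0.132) turned to -1.26 without anti-PD-L1 replicate 2. This library was at the same time the lowest of its group in the summed pan-leukocyte, resident macrophage, macrophage identity and phagocytic receptor lists. Without it, 14 pan-leukocyte, 17 resident macrophage, 11 complement and 8 class II members were called, against 14, 14, 11 and 8 with it. Over all genes tested, the calls went from 569 higher and 222 lower with this library to 1424 and 1288 without it. Its part in the list counts was not tested.

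Neutrophil genes were also led by this library. S100a8 was at 17.2, 27.1 and 5.67 CPM against 1.74, 4.27, 2.58 and 1.77 CPM (2.68 ± 0.63, adjusted p = 0.0287), and Ngp, a granule protein gene of immature neutrophils, at 1.43, 6.21 and 1.01 CPM against 0.434, 0.602, 0.315 and 0.244 CPM (2.84 ± 0.74, adjusted p = 0.0399). S100a9 rose by 2.44 ± 0.68 (adjusted p = 0.0488). These 3 of 7 tested members rose, and no member was called in 4 of the 7 fits that left out a library, those without anti-PD-L1 replicate 1 and without IgG replicates 1, 3 and 4 in turn. The granule genes Camp and Mpo, below the filter, had 65 and 29 counts in anti-PD-L1 replicate 2 and at most 9 in any other library. Mast cell proteases rose more evenly, Mcpt4 with 1.81, 3.94 and 3.52 CPM against 0.559, 0.782, 0.126 and 0.733 CPM (2.47 ± 0.43, adjusted p = 0.00727) and Cma1 by 2.49 ± 0.67 (adjusted p = 0.0432). Itgax, the integrin chain CD11c of dendritic cells and some macrophages, rose by 3.40 ± 0.82 (adjusted p = 0.0310), and Siglech, a marker of plasmacytoid dendritic cells, by 2.88 ± 0.70 (adjusted p = 0.0325). Both had few counts in IgG. Itgax was at 3.38, 0.686 and 0.528 CPM against 0.186, 0.301, 0 and 0.0611 CPM. Siglech was at 0.238, 0.857 and 1.06 CPM against 0.186, 0.120, 0.0630 and 0 CPM. With Mcpt4 and Cma1, 4 of 12 dendritic and mast cell genes rose. The count was 1 without IgG replicate 1, 3 or 4, 2 without anti-PD-L1 replicate 1 or 3, and 7 without IgG replicate 2.

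**Figure D4:**
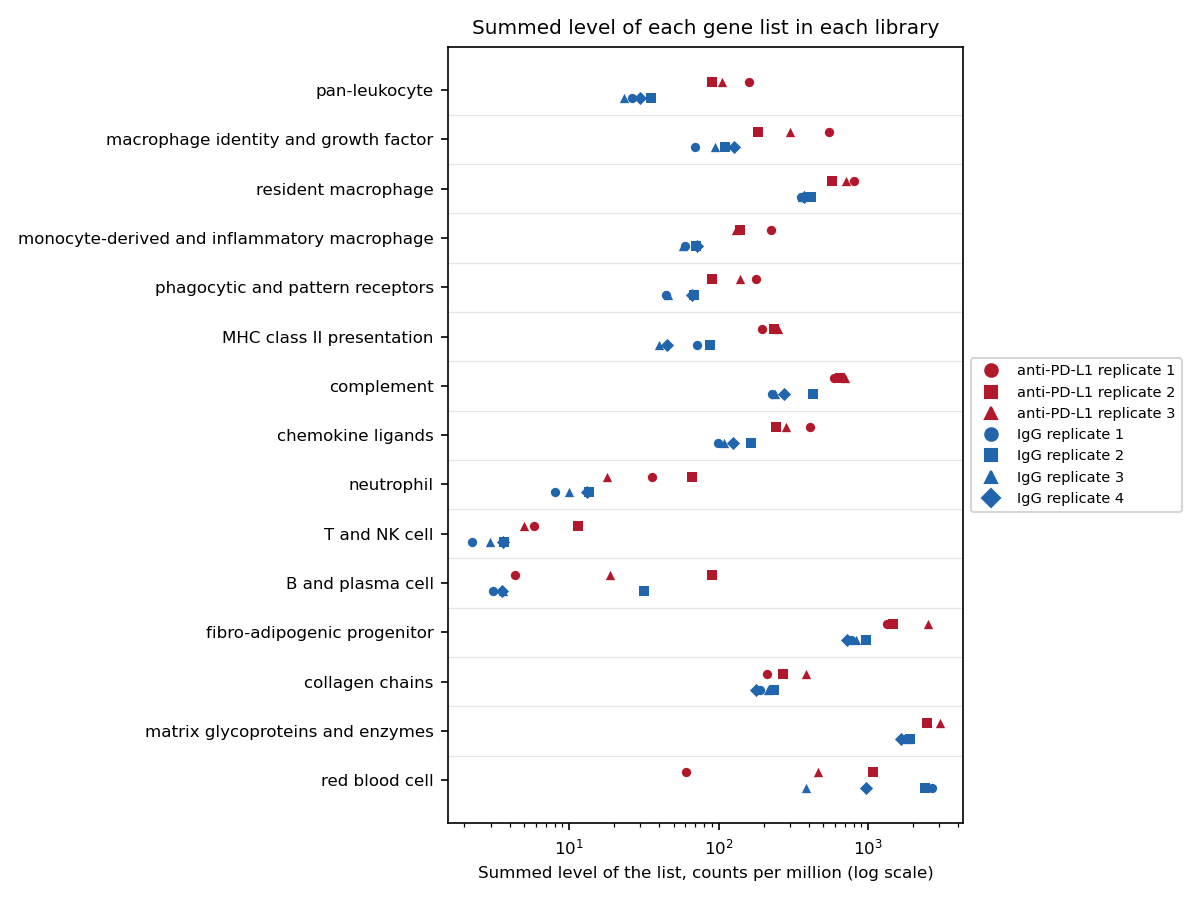
Each symbol is 1 library, with the summed level of a gene list in CPM on a log axis, anti-PD-L1 in red above and IgG in blue below, and 1 shape per replicate number. Anti-PD-L1 replicate 1 is rightmost of its group in the pan-leukocyte, macrophage and phagocytic receptor lists, replicate 2 in the neutrophil, T and B cell lists and replicate 3 in the fibro-adipogenic progenitor, collagen and matrix lists.

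Most genes of fibro-adipogenic progenitors rose. Of 29 tested, 20 rose and none fell, with a median log2 fold change of 1.12, and 6 kept their call with each library left out. Pdgfra, the receptor that defines these cells, was at 33.1, 29.9 and 43.6 CPM against 20.4, 19.9, 15.9 and 16.2 CPM (0.97 ± 0.18, adjusted p = 0.00880). Scara5, a ferritin receptor of these cells, was at 46.8, 38.5 and 49.9 CPM against 25.7, 21.7, 19.98 and 21.9 CPM (1.01 ± 0.16, adjusted p = 0.00484). Dpp4 and Pi16 mark the progenitors that lie along fascia. Pi16 was at 11.01, 4.29 and 34.7 CPM against 1.3, 2.59, 1.76 and 1.28 CPM (3.26 ± 0.50, adjusted p = 0.00484), and Dpp4 at 5.43, 2.61 and 8.36 CPM against 0.931, 2.23, 1.13 and 0.794 CPM (2.10 ± 0.39, adjusted p = 0.00939). In both, anti-PD-L1 replicate 3 was highest and replicate 2 lowest, yet above every IgG library. Clec3b (tetranectin) rose by 2.51 ± 0.47 (adjusted p = 0.00939) and Dpt (dermatopontin) by 1.95 ± 0.30 (adjusted p = 0.00484).

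Members that did not pass included Ly6a (0.40 ± 0.27), Cd34 (1.03 ± 0.33, adjusted p = 0.0689), Smoc2 (0.59 ± 0.23) and Hic1 (0.55 ± 0.39), which mark the same cells. The summed level, 1346, 1462 and 2499 CPM against 773, 973, 832 and 727 CPM, was set mostly by Gsn. In control it was 1186 to 1705 CPM, which overlapped with the anti-PD-L1 libraries. Without anti-PD-L1 replicate 3, 6 of 29 were called, 12 without IgG replicate 1, 13 without IgG replicate 3 or 4, and 22 without anti-PD-L1 replicate 2. Adipocyte genes, none of 9 called, and tendon genes, none of 11 called, were the neighbouring lists. Lep, the adipocyte hormone leptin, was below the filter with 54 counts in anti-PD-L1 replicate 3 and 0 to 5 elsewhere. The part of fat or fascia in the result was not tested.

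Of 47 matrix glycoprotein and enzyme genes, 15 rose and none fell, with a median log2 fold change of 0.57. The count went from 4 without anti-PD-L1 replicate 3 to 19 without IgG replicate 2, it was 7 without anti-PD-L1 replicate 1 and without IgG replicates 1 and 4 in turn and 9 without IgG replicate 3, and 2 fell without anti-PD-L1 replicate 2. Dcn (decorin), which has the highest CPM of them, was at 1053, 957 and 1132 CPM against 637, 629, 581 and 457 CPM (0.86 ± 0.17, adjusted p = 0.0126). Efemp1 rose by 1.97 ± 0.29 (adjusted p = 0.00484), Ogn by 1.79 ± 0.32 (adjusted p = 0.00729) and Fn1, fibronectin, by 1.98 ± 0.35 (adjusted p = 0.00745). Adamts5, a protease that cuts large proteoglycans, was at 17.3, 23.6 and 28.2 CPM against 8.44, 11.9, 8.82 and 9.77 CPM (1.24 ± 0.19, adjusted p = 0.00484). The basement membrane genes Nid1 and Nid2 rose by 1.09 ± 0.22 and 0.88 ± 0.21, while Lama2 (0.11 ± 0.16), Lamc1 (-0.14 ± 0.19) and Hspg2 (0.29 ± 0.24) did not pass.

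Of 23 collagen genes, 5 rose: Col1a2, Col6a1, Col6a2, Col6a6 and Col14a1. Col14a1, a collagen on the surface of fibrils, was at 6.29, 3.51 and 12.5 CPM against 1.92, 2.83, 1.89 and 1.53 CPM (1.86 ± 0.37, adjusted p = 0.0140). Col1a2 was at 19.6, 23.6 and 64.8 CPM against 10.1, 19.5, 10.4 and 10.02 CPM (1.53 ± 0.40, adjusted p = 0.0388), and its mean in control was 176 CPM, above both groups. Col3a1, at 12.4, 7.54 and 26.8 CPM against 4.16, 10.7, 2.90 and 6.29 CPM, did not pass (1.37 ± 0.47, adjusted p = 0.0864), and its control mean was 197 CPM. The basement membrane collagens Col4a1 (0.12 ± 0.23) and Col4a2 (-0.15 ± 0.22) lay near 0. Without anti-PD-L1 replicate 3 no collagen was called, 1 without IgG replicate 1 or 4, 2 without IgG replicate 3, 10 without anti-PD-L1 replicate 2 and 11 without IgG replicate 2. The summed collagen level, 211, 269 and 382 CPM against 190.5, 235, 216 and 178 CPM, overlapped between the groups.

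In the lists of other cell types of muscle the calls were near the 5.50% of all genes. Of 24 endothelial genes, Vcam1 rose (1.65 ± 0.44, adjusted p = 0.0410) and Rgcc fell (-0.92 ± 0.24, adjusted p = 0.0411), and both overlapped between groups. Of 12 mural genes, Higd1b rose (1.61 ± 0.44, adjusted p = 0.0469), and none of 11 Schwann cell genes was called, with Ngfr at 1.78 ± 0.57 (adjusted p = 0.0725). Haemoglobin and other red blood cell genes summed to 60.6, 1081 and 461 CPM against 2679, 2391, 386 and 968 CPM. Anti-PD-L1 replicate 1 was far below the other libraries, the groups overlapped, and none of 6 was called, with Alas2 at -1.83 ± 0.72 (adjusted p = 0.120). Without anti-PD-L1 replicate 2, 5 of the 6 were called lower. The lung and airway genes Nkx2-1, Sftpa1 and Krt5 were at 0 counts in all 7 libraries, which allows 0.129 to 0.189 CPM. The part of blood in the result was not tested.

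**Figure D5:**
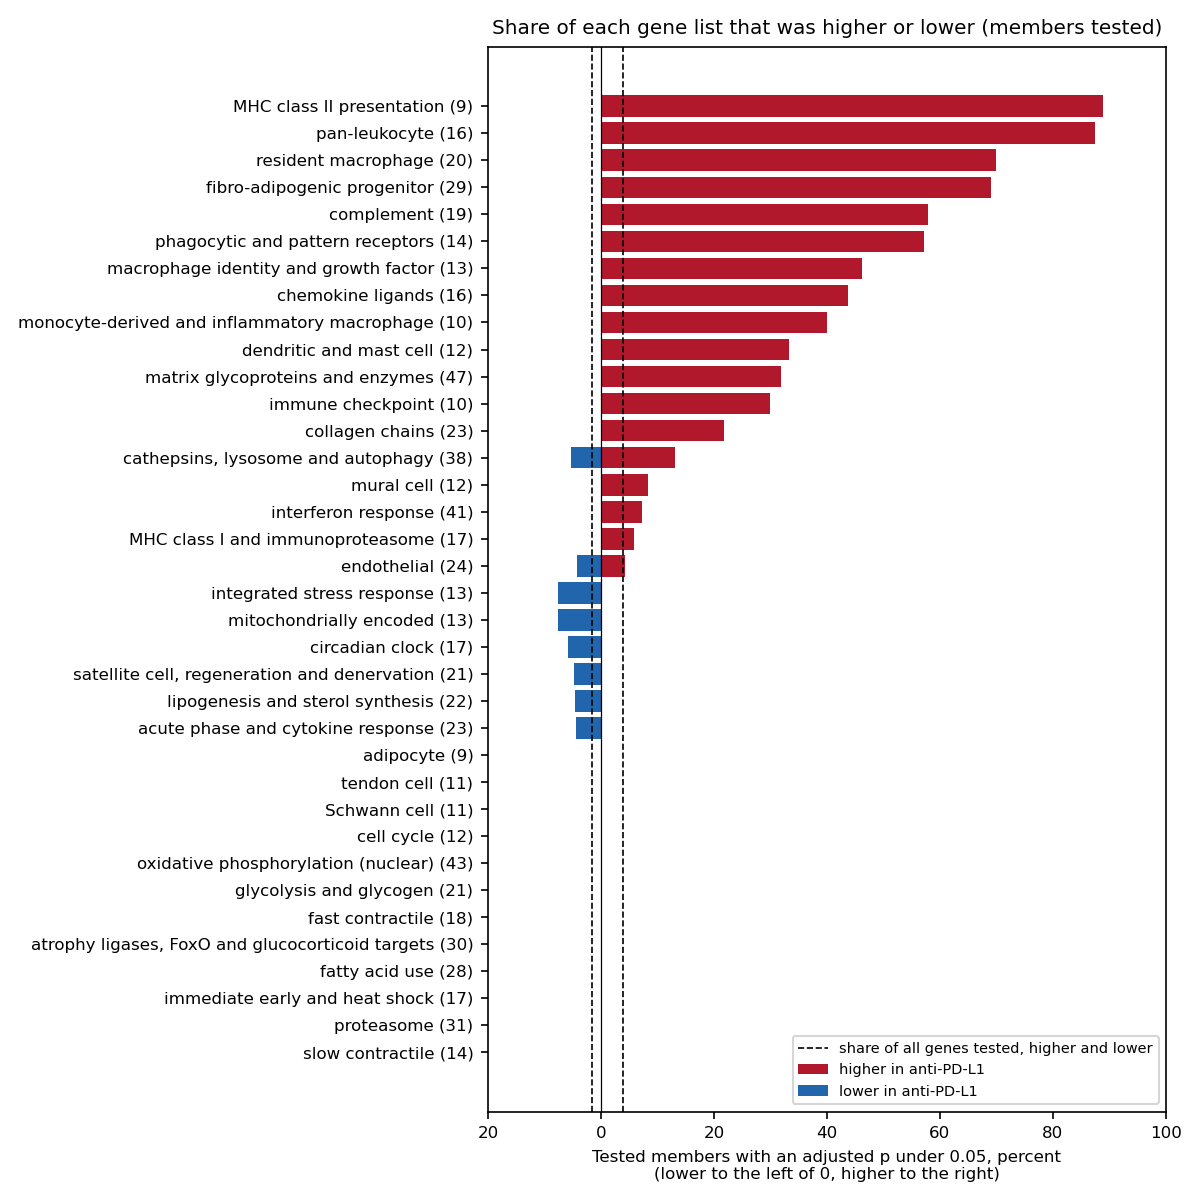
For each gene list with 9 or more tested members (number in brackets), bars give the percent of tested members with an adjusted p under 0.05, higher to the right in red and lower to the left in blue. Dashed lines mark the shares of all genes tested, 3.96% higher and 1.54% lower, and class II presentation, pan-leukocyte, resident macrophage and fibro-adipogenic progenitor lists reach farthest to the right.

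Of 30 ubiquitin ligase, FoxO and glucocorticoid target genes of muscle wasting, none was called, where 5.50% of all genes were, and the median log2 fold change was -0.30, with 23 values below 0. Trim63 (MuRF1), the ligase that marks myosin for breakdown, was at 2152, 6876 and 2607 CPM against 5944, 4044, 4653 and 4519.8 CPM (-0.30 ± 0.49, adjusted p = 0.723). Fbxo32 (atrogin-1), the other atrophy ligase, was at 2172, 4236 and 2779.8 CPM against 4590.3, 3279, 3772 and 4587 CPM (-0.41 ± 0.28, adjusted p = 0.353). Both were far above their control means of 521 and 465 CPM in all 7 libraries. Anti-PD-L1 replicates 1 and 3 lay below all 4 IgG libraries in both genes, and replicate 2 lay inside or above the IgG range. Without anti-PD-L1 replicate 2, Trim63 was at -1.01 (adjusted p = 0.174) and Fbxo32 at -0.71 (adjusted p = 0.101), and 3 members of the list were called lower.

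Ctsl encodes cathepsin L, a lysosomal protease that the series title names. It was at 298, 394 and 151 CPM against 463, 226, 376 and 459 CPM, with a control mean of 80.2 CPM. The groups overlapped, and the log2 fold change was -0.44 ± 0.27 (adjusted p = 0.297). It passed in 1 alternative, without replicate 2 of both groups, at -0.95 (adjusted p = 0.0083), and ranged from -0.76 to -0.14 with 1 library left out. That alternative left out the highest anti-PD-L1 and the lowest IgG library of this gene. Its wider difference follows from that choice, and nothing is read from it. Of 38 cathepsin, lysosome and autophagy genes, 5 rose and 2 fell. With 1 library left out, 0 (without anti-PD-L1 replicate 1) to 8 (without anti-PD-L1 replicate 2) rose. None fell in 5 of these fits, but 7 fell without IgG replicate 2 and 10 without anti-PD-L1 replicate 2. Those that rose were Ctsh (1.17 ± 0.24), Ctsc (1.26 ± 0.27), Ctso (1.03 ± 0.25), Gusb (1.17 ± 0.28) and Npc2 (0.49 ± 0.12), lysosomal genes. Ctsc, which activates the granule proteases of leukocytes, was at 30.8, 17.8 and 40.4 CPM against 11.3, 15.7, 12.2 and 10.4 CPM. Optn, an autophagy receptor, fell (-0.81 ± 0.19, adjusted p = 0.0259). It was at 64.9, 91.4 and 65.1 CPM against 134, 102, 132 and 149 CPM.

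None of 31 proteasome genes was called, and all 31 log2 fold changes were below 0, with a median of -0.36 and -0.26 with upper-quartile scaling. Psmc4, an ATPase of the cap, had the smallest p of the list (-0.76 ± 0.22, adjusted p = 0.0532) and was at 122, 198 and 134 CPM against 249.7, 154, 351 and 269 CPM. IgG replicate 2 was the lowest of its group in this gene and anti-PD-L1 replicate 2 the highest of its own. Without IgG replicate 2, 16 of the 31 were called lower, without anti-PD-L1 replicate 2, 9, and without any other single library, none.

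Slow-fibre genes were lower in mean without passing, in all 14 members, with a median log2 fold change of -1.14. They summed to 7146, 3714 and 1659 CPM against 5914, 5052, 6937 and 14446 CPM, with IgG replicate 4 far above the others and anti-PD-L1 replicate 3 lowest. Myh7b had the smallest p of them (-1.18 ± 0.61, adjusted p = 0.222). None of 18 fast-fibre genes was called. Ryr1, the calcium release channel, was at 2552, 2690.1 and 2469 CPM against 5697, 3585, 3066 and 3255 CPM and did not overlap (-0.60 ± 0.22, adjusted p = 0.106). Among the genes of energy metabolism, none of 43 nuclear oxidative phosphorylation, 21 glycolysis and 28 fatty acid genes was called. The mitochondrially encoded transcripts summed to 112775, 101071 and 107419 CPM against 152072, 139471, 171665 and 114524 CPM, and 1 of 13, mt-Nd5, fell (-0.79 ± 0.22, adjusted p = 0.0489). Before scaling, mitochondrial shares of counts overlapped, at 14.4, 11.1 and 12.9% against 13.7, 14.7, 16.7 and 12.8%. The TMM scaling factors were 1.18, 1.04 and 1.11 against 0.859, 0.995, 0.933 and 1.03, without overlap. The part of scaling in the difference of the sums was not tested.

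The lower genes of largest change were Myh6 (-2.0 ± 0.53), Acsf2 (-1.94 ± 0.54), Kcnk5 (-1.61 ± 0.41), Runx1 (-1.44 ± 0.36), Acaca (-1.39 ± 0.25) and Map1b (-1.33 ± 0.25), among those of at least 1 CPM with groups apart. Myh6, the alpha heavy chain of cardiac myosin, was at 1.43, 1.07 and 0.264 CPM against 2.73, 3.55, 2.08 and 6.35 CPM (adjusted p = 0.0410). Runx1, a transcription factor that denervated muscle switches on, was at 10.8, 12.1 and 6.20 CPM against 37.98, 15.7, 23.6 and 27.5 CPM (adjusted p = 0.0349), and its control mean was 2.19 CPM. The anti-PD-L1 libraries lay between the control mean and the IgG libraries in this gene. Acaca, the first enzyme of fatty acid synthesis, was at 22.8, 17.3 and 14.9 CPM against 71.99, 30.6, 36.1 and 53.5 CPM (adjusted p = 0.00863), with a control mean of 13.2 CPM. Map1b, a microtubule protein gene of neurons and regenerating fibres, was at 13.2, 16.6 and 11.6 CPM against 25.01, 28.6, 42.2 and 42.9 CPM (adjusted p = 0.0101).

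Nepro, Lama5, Trim16, Odf2, Traf3, Clic5, Eea1 and Hs6st1 also fell, with log2 fold changes from -1.13 to -0.93. Clic5, which encodes a chloride intracellular channel protein, had a mean of 257 ± 23.1 CPM (SD, n = 3) against 492 ± 172 CPM (SD, n = 4), and its log2 fold change was -0.94 ± 0.21 (edgeR, adjusted p = 0.0211). Lama5, a laminin chain, was at 17.1, 22.4 and 21.6 CPM against 46.98, 31.7, 61.9 and 24.6 CPM, and Traf3, a brake on noncanonical NF-kB signalling, at 10.6, 8.83 and 13.1 CPM against 28.7, 16.2, 24.6 and 14.4 CPM. Stress and clock lists held 1 lower gene each: Atf4, the transcription factor of the integrated stress response, fell by 0.74 on the log2 scale (adjusted p = 0.0337), at 252, 424 and 301 CPM against 699, 444, 522 and 515 CPM. Clock, a core gene of the circadian clock, stood at 32.8, 43.5 and 42.2 CPM against 87.6, 55.5, 53.4 and 74.6 CPM (-0.78 ± 0.18, adjusted p = 0.0283). Tnfrsf12a, the receptor Fn14 of the cytokine TWEAK, was at 76.3, 44.9 and 41.3 CPM against 80.5, 89.7, 91.7 and 132 CPM (-0.86 ± 0.23, adjusted p = 0.0403). Anti-PD-L1 replicate 1, at 76.3 CPM, came near to the lowest IgG library there. Of the 222 lower genes, 204 had an anti-PD-L1 mean above the control mean. Of the 569 higher genes, 319 had an anti-PD-L1 mean above the control mean and 250 one below it. These are counts of means, with no test against control. The share among all genes tested was not set beside them, and lower genes were picked for being higher in IgG. No move toward or away from control is read from these counts. The lower calls were the less stable direction, 2 of 222 against 86 of 569 kept with each library left out, and with 1 library left out they numbered 5 (without anti-PD-L1 replicate 3) to 1288 (without anti-PD-L1 replicate 2).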

How the data were processed

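RNA sequencing of the tibialis anterior was compared between 3 anti-PD-L1 and 4 IgG libraries. Per the submitters' processing notes, Trim Galore, STAR 2.7.9a and RSEM 1.3.3 were used, and a directional MGIEasy kit was used for the libraries, per the labels. The genome build, annotation and strand setting are not given in the sources used here, so genes with close copies or antisense partners are less certain. The authors deposited RSEM expected counts for 55416 genes per library, with TPM values beside them. TPM was made by the authors with RSEM and served here only as a check of level. Gene IDs were matched to symbols through a GENCODE M21 names table (52083 of 55416).

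Expected counts were rounded to whole numbers. All 15 libraries in 4 groups were fitted in edgeR 4.0.16 (R 4.3.3) with TMM scaling, filterByExpr by group, a quasi-likelihood F test with 11 residual degrees of freedom, and p-values were adjusted by Benjamini and Hochberg over all 14372 genes kept. Genes were called at an adjusted p under 0.05. Each standard error was taken as the size of the log2 fold change over the root of F. Levels are TMM-scaled CPM, and values run from replicate 1 upwards. The filter keeps a low gene that is high in 1 group, so list counts and medians describe the members kept. The 41 lists (867 genes, 749 tested) got no test of their own. Members and lists were chosen with earlier results of these data known. A count of 0 allows up to 3 counts, 0.129 to 0.189 scaled CPM, which covers counting error only. No 2 libraries of the same group agreed within sampling noise.

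The rule for named genes took Ctsl, Trim63, Fbxo32, Cd274 and Cd8a; the 15 higher and 15 lower called genes of largest change with a mean of at least 1 CPM, groups apart and no Gm or Rik symbol; up to 4 called members of each list, or its member of smallest p; and the 20 most abundant genes called with each library left out in turn. Other list members are named for comparison, chosen after their values were seen, and a few genes that the rule or lists hold are not reported here. Alternatives were upper-quartile and median-of-ratios scaling, no filter, a filter at a mean of 1 CPM, DESeq2 1.42.0, the 2 groups alone, replicate number as a block, each library left out, and both replicates 2 left out. The fits were tested on simulated data. Promoters came from RefSeq (GRCm38.p6).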

Additional observations from a re-analysis of the deposited data

Results flagged for a closer look

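In the IgG group, 10 of 128 named genes had 1 library far from the other 3 by Dixon's criterion at 95%, where chance gives about 1 in 20, and in all 10 it was IgG replicate 2, the highest of its group. Among macrophage and complement genes, Folr2 was at 0.602 CPM against 0.122 to 0.189 CPM in the other 3, Ms4a6c at 1.44 CPM against 0.504 to 0.621, C3 at 53.0 CPM against 22.5 to 24.3 and C1s1 at 20.9 CPM against 9.53 to 10.6. Among matrix and stromal genes, Clec3b was at 5.60 CPM against 1.43 to 2.08 and Col1a2 at 19.5 CPM against 10.0 to 10.4. Igkc was at 4.57 CPM against 0.122 to 0.248, the mast cell protease gene Cma1 at 1.32 CPM against 0.122 to 0.186, Ctso at 5.42 CPM against 2.92 to 3.09 and Cenpa at 0.542 CPM against 0.126 to 0.186. Igkc, Ctso and Cenpa overlapped with the anti-PD-L1 libraries, and in the other 7 genes IgG replicate 2 lay below all 3. Those 7 were named because they were called higher, so this order follows in part from how they were chosen. The anti-PD-L1 group, with 3 libraries, was not examined in this way.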

How the results depend on the processing

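The 791 calls (569 higher, 222 lower) became 1778 in DESeq2 (865 and 913), 37 with the 2 groups alone (37 and 0, edgeR, although 2069 genes of that fit had an unadjusted p under 0.05) and 4215 without both replicates 2 (2230 and 1985). Replicate 2 of each group lay nearest to the other group, so the last of these counts follows in part from which libraries were left out. With 1 library left out the calls ranged from 147 to 2712 (139 to 1451 higher, 5 to 1288 lower). Lower calls numbered 126 with upper-quartile scaling and 341 without the low-count filter, and other scaling and filter alternatives kept all 3 counts within 1.5 times. With replicate number as a block, 69 genes were called (68 higher and 1 lower), all among the 791. The labels do not say that a number pairs libraries, and deviations of same-numbered libraries correlated at -0.14, -0.35 and -0.01, so no library correlated best with its own number. Of 128 named genes, 109 were called, of which 9 kept the call under all 15 alternatives, and 12 of the other 19 gained one under at least 1. The log2 fold change of Igkc ranged from -1.26 without anti-PD-L1 replicate 2 to 5.91 without IgG replicate 2. The cause of these changes was not tested. T and NK cell genes were mostly outside the reported fit, with 24 of 28 below the filter, and the cause of their low counts was not tested. Without the filter, 4 T and NK cell and 5 B and plasma cell genes were called higher, where 808 of 27469 genes were. The lymphocyte and antibody transcripts of anti-PD-L1 replicate 2 entered that fit, and their part in these calls was not tested.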

Other observations

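Some genes below the filter on low counts, which entered no comparison of the reported fit, were read in few libraries. Il7r, the receptor for interleukin 7 on lymphocytes and some macrophages, had 48, 51 and 8 counts in anti-PD-L1 replicates 1 to 3 and 0, 1, 1 and 2 counts in IgG replicates 1 to 4. Marco, a scavenger receptor of some macrophages, had 0, 21 and 28 counts against 0, 0, 1 and 1. Ccl7, a monocyte attractant, had 28 counts in anti-PD-L1 replicate 1, 3 and 2 in the other anti-PD-L1 libraries and 1 or 2 in each IgG library. Krt7, an epithelial keratin, had 29 counts in anti-PD-L1 replicate 3 and 25 in IgG replicate 4, and 2 to 8 in the other 5 libraries.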
